A study of Mus musculus with 6 samples.

Results

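Collagens are secreted or membrane proteins whose chains wind around each other, in sets of the same or related chains, into a rod-like triple helix. The fibrillar types build the rope-like fibrils of connective tissue, type IV builds the network of basement membranes, and the remaining types coat fibrils, form short networks or microfilaments, or sit in cell membranes. In the adult subventricular zone, the stem cell region along the lateral ventricles, stem cells touch vessels and branched basement membranes that hold type IV and related collagens, while type I and type III collagen are mainly products of fibroblasts, meningeal cells and perivascular cells. The collagen genes described here are the rows of the deposited count table whose symbol is Col, a number, a and a number. There are 44 of them among 24421 listed genes, 11 for fibrillar chains, 6 for basement membrane chains, all of type IV, and 27 for all other chains. Col18a1, which encodes a basement membrane proteoglycan, is counted among the other chains.

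The libraries come from neural stem cells cultured from the subventricular zone of C57BL/6 mice of postnatal day 60, described as wild type. EGF and FGF2, each at 20 ng/ml, were in the medium of both groups, which was replaced after 24 h. One group received 20 µM PluriSIn#2, an inhibitor of topoisomerase IIA per the series' design text, and the other received DMSO, its solvent, both for 3 days, with 3 libraries per group. The labels do not say whether the libraries of a group came from separate cultures or animals, so p-values measure the spread between these libraries, which may be technical. The titles name all 3 treated libraries PluriSIn#2, but the treatment field of replicates 2 and 3 ends in other numbers, and results that change with treated replicate 1 alone are named as such. That fit has 1 treated library, which is assumed to vary like the 3 DMSO libraries, so a call lost there may come from the smaller number of libraries and says nothing about stability.

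Libraries held 16670962 to 19241869 counts, and 14417 genes passed the filter on low counts and were tested. All 12 neural stem cell markers were detected and tested, with a summed level of 7998 to 8033 CPM (read counts relative to the scaled size of each library) in PluriSIn#2 and 8484 to 8589 CPM in DMSO. Of these, 5 rose and 7 fell, where 41.7% of all tested genes were called higher and 40.9% lower. Gfap, a filament gene of astrocytes and adult stem cells, averaged 299.6 ± 0.638 CPM in PluriSIn#2 and 42.0 ± 2.17 CPM in DMSO. Nes, which encodes nestin, averaged 437 ± 3.21 CPM in PluriSIn#2 and 1187 ± 20.4 CPM in DMSO (SD, n = 3 each, here and below).

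The structural difference between fibrillar and basement membrane collagens is visible in the coding sequence. There, each turn of the collagen helix is written as a glycine codon followed by a pair of other codons. The first sequence below is part of an exon of Col3a1, on the plus strand at chr1:45325360-45325413 of GRCm38. The second is part of an exon of Col4a1, on the minus strand at chr8:11235150-11235200, at a break in the repeat. Both are read from the GENCODE transcripts, and capitals mark glycine codons.
Col3a1: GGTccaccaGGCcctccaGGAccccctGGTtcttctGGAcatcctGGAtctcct
Col4a1: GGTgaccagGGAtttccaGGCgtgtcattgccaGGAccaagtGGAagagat
In Col3a1 glycine returns at every step of 3 codons, and in Col4a1 the regular spacing is broken after the third repeat by 2 extra codons. Across the 11 fibrillar genes the longest unbroken run held between 216 and 344 such repeats, and at most 3 runs of at least 5 repeats were found per gene. Across the 6 basement membrane genes the longest run held 39 to 66 repeats, and the repeat was divided into 16 to 24 runs. The other collagens lay between 23 and 113 repeats for their longest run, in 2 to 17 runs, and overlapped the basement membrane genes in both measures.

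Of the 44 collagen genes, 37 passed the filter. Transcripts of 24 were higher and of 7 lower in PluriSIn#2, and 6 were not called at an adjusted p under 0.05 (edgeR quasi-likelihood test with Benjamini-Hochberg adjustment over all 14417 genes, as for all adjusted p-values below). Over all tested genes, 41.7% were called higher and 40.9% lower. Rises of at least 4-fold were called for 13 collagens, where 5.99% of all tested genes were called higher by as much. The median log2 fold change of the 37 collagens was 0.88, and that of all tested genes was 0.01. The groups did not overlap in 32 of the 37 collagens and in 11927 of all 14417 tested genes. A lack of overlap is thus the usual case in these libraries and does not mark out a collagen gene. In bulk RNA, fewer cells of a type and less RNA per cell cannot be told apart, nor can the opposites. A member that DMSO libraries barely contained was tested only because its treated counts were high, so the counts of called members favour risers.

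By class, 8 of the 10 tested fibrillar genes rose and 1 fell (median 0.96), 4 of the 6 basement membrane genes rose and 0 fell (median 0.86), and 12 of the 21 other genes tested rose and 6 fell (median 0.97). The medians of the 3 classes were thus close together. The count of 0 falls among basement membrane genes by edgeR was also 0 at an unadjusted p under 0.05 and 0 in DESeq2. The number of members with rises of at least 4-fold was 3 fibrillar, 2 basement membrane and 8 other collagens. Over all tested genes, 41.7% were called higher, 40.9% lower and 5.99% higher by at least 4-fold. Among the other collagens, Col8a2 and Col10a1, with 4 and 5 reads over the DMSO libraries, could enter the test only as risers.

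Markers of other cell types changed in the same libraries, where 41.7% of all tested genes were called higher and 40.9% lower. As with the collagens, a marker that DMSO libraries barely contained was tested only because its treated counts were high. The counts of called markers therefore favour risers. Of 18 fibroblast and mural markers 15 were tested, of which 11 rose and 3 fell (median 2.53). Dcn, a proteoglycan that coats collagen fibrils, averaged 15.7 ± 1.31 CPM in PluriSIn#2 and 0.128 ± 0.0624 CPM in DMSO, and Bgn averaged 81.4 ± 2.29 CPM in PluriSIn#2 and 2.90 ± 0.949 CPM in DMSO. Thy1, Cspg4 and Fbln1 fell (-1.12, -0.79 and -1.49). The summed level of the list was 403 to 410 CPM in PluriSIn#2 and 449 to 457 CPM in DMSO, and no member was at 0 in either group. The 3 genes that fell made up most of the DMSO sum, so its direction is theirs and not that of the 11 that rose. Thy1 averaged 98.2 CPM in PluriSIn#2 and 213 CPM in DMSO, Cspg4 86.2 and 149 CPM, and Fbln1 18.4 and 51.6 CPM. Of 12 endothelial markers 11 were tested, of which 8 rose and 1, Ramp2, fell, with a sum of 40.4 to 44.5 CPM in PluriSIn#2 and 12.4 to 14.2 CPM in DMSO. Cdh5, the cadherin of endothelial junctions, averaged 16.5 ± 1.85 CPM in PluriSIn#2 and 0.128 ± 0.0276 CPM in DMSO, and Esam rose too (2.84).

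All 10 tested of 12 macrophage markers rose, with a sum of 161 to 169 CPM in PluriSIn#2 and 7.88 to 8.85 CPM in DMSO. Several of them, such as Ptprc and C1qa with 6 and 7 reads over the DMSO libraries, could enter the test only as risers. Lyz2 averaged 81.8 ± 1.77 CPM in PluriSIn#2 and 1.26 ± 0.303 CPM in DMSO, and Trem2 had 543 reads over the PluriSIn#2 libraries and 0 over the DMSO libraries. All 6 tested of 8 choroid plexus markers rose, with a sum of 525 to 543 CPM in PluriSIn#2 and 12.4 to 14.0 CPM in DMSO. Here too, Clic6 and Kl, with 7 and 2 reads over the DMSO libraries, could enter the test only as risers. Ttr, the transthyretin gene, made up most of the PluriSIn#2 sum (501 ± 8.57 CPM, against 1.89 ± 0.408 CPM in DMSO). Otx2, a transcription factor gene, made up most of the DMSO sum (13.6 ± 0.919 CPM in PluriSIn#2 and 10.1 ± 0.547 CPM in DMSO). The part of these cell types in the collagen values was not tested.

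**Figure D1:**
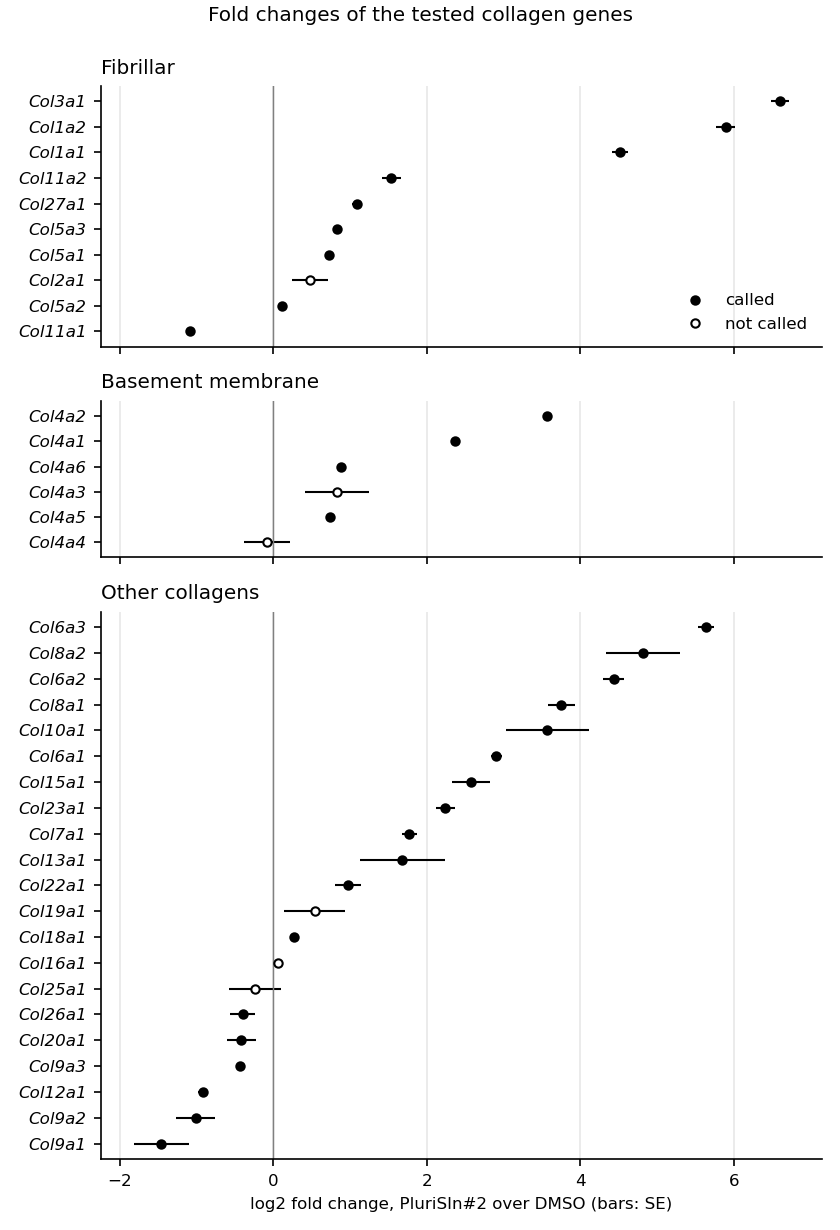
Log2 fold change of PluriSIn#2 over DMSO (x axis) for the 37 tested collagen genes in 3 classes, with bars for the SE, filled points for called genes and open points for genes not called. The values run from -1.46 for Col9a1 to 6.60 for Col3a1, and the 3 fibrillar genes past 4 are Col3a1, Col1a2 and Col1a1.

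Among the fibrillar collagens, the genes of types I and III stood apart from the rest. Col3a1, the only chain of type III collagen, stood at 62.3, 61.6 and 60.7 CPM in the PluriSIn#2 libraries and at 0.616, 0.844 and 0.427 CPM in the DMSO libraries. Its log2 fold change was 6.60 (SE 0.12, edgeR adjusted p = 5.7e-66). The DMSO values rest on 11, 15 and 8 reads, against 1104, 1123 and 1035 reads in PluriSIn#2, and the groups were far from overlapping. Col1a2, a chain of type I collagen, stood at 46.4, 45.4 and 43.9 CPM in PluriSIn#2 and at 0.952, 0.394 and 0.907 CPM in DMSO (log2 fold change 5.89, SE 0.13, edgeR adjusted p = 1.36e-59). Its partner chain Col1a1 stood at 46.6, 43.9 and 43.5 CPM in PluriSIn#2 and at 1.96, 1.97 and 1.92 CPM in DMSO (log2 fold change 4.51, SE 0.10, edgeR adjusted p = 1.13e-57). Per kb of transcript, Col3a1 (0.113 CPM per kb) and Col1a2 (0.14) were the lowest of the 10 tested fibrillar genes in DMSO, while Col1a1 (0.329 ± 0.00443) and Col2a1 (0.345 ± 0.0983) did not differ beyond their spread. In PluriSIn#2 Col3a1, Col1a2 and Col1a1 stood at 11.1, 8.46 and 7.53 CPM per kb, and Col3a1 was level with Col5a1 (10.6).

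The genes of type V collagen, which joins type I in mixed fibrils and sets their diameter, were already abundant in DMSO and moved less. Col5a3 stood at 123, 125 and 121 CPM in PluriSIn#2 and at 73.6, 66.2 and 67.9 CPM in DMSO (log2 fold change 0.83, SE 0.04). Col5a1 stood at 92.1, 86.5 and 87.8 CPM in PluriSIn#2 and at 54.9, 52.3 and 53.9 CPM in DMSO (0.73, SE 0.04). Every PluriSIn#2 library lay above every DMSO library for both, and their edgeR adjusted p-values were 1.84e-34 and 1.57e-27. Col5a2, the remaining chain, stood at 89.3, 91.3 and 89.7 CPM in PluriSIn#2 and at 84.4, 80.4 and 84.9 CPM in DMSO. Its call (log2 fold change 0.11, SE 0.04, edgeR adjusted p = 0.00669) was lost without DMSO replicate 2 (adjusted p = 0.0795, edgeR) and with treated replicate 1 alone (adjusted p = 0.13).

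The fibrillar genes known from cartilage did not share a direction. Col11a1, a chain of type XI collagen, was the 1 fibrillar gene that fell, with 43.3, 40.9 and 42.5 CPM in PluriSIn#2 and 86.8, 91.0 and 92.3 CPM in DMSO. Its log2 fold change was -1.09 (SE 0.05, edgeR adjusted p = 3.93e-38). Col11a2, the partner chain of the same type, rose (1.54, SE 0.13), with a mean of 12.2 ± 0.286 CPM in PluriSIn#2 and 4.21 ± 0.633 CPM in DMSO. Col27a1, which forms thin fibrils in cartilage, rose (1.09, SE 0.07). Col2a1, the main cartilage collagen, averaged 2.45 ± 0.242 CPM in PluriSIn#2 and 1.76 ± 0.502 CPM in DMSO and was not called (edgeR adjusted p = 0.0574). It was called when 1 library was left out, namely DMSO replicate 1 (edgeR adjusted p = 0.0466), DMSO replicate 3 (0.0374) or PluriSIn#2 replicate 3 (0.0495), and also with library totals (0.0292) and with a filter at 1 CPM (0.0489). Col24a1 had 17 reads over the PluriSIn#2 libraries and 9 over the DMSO libraries and was not tested.

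Col3a1 and Col5a2 are neighbours on chromosome 1, where their 3′ ends face each other across 24.6 kb. Col3a1 lies on the plus strand at chr1:45311538-45349706 and Col5a2 on the minus strand at chr1:45374321-45503282. Their log2 fold changes of 6.60 and 0.11 were the largest and the smallest called rises of the fibrillar class.

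**Figure D2:**
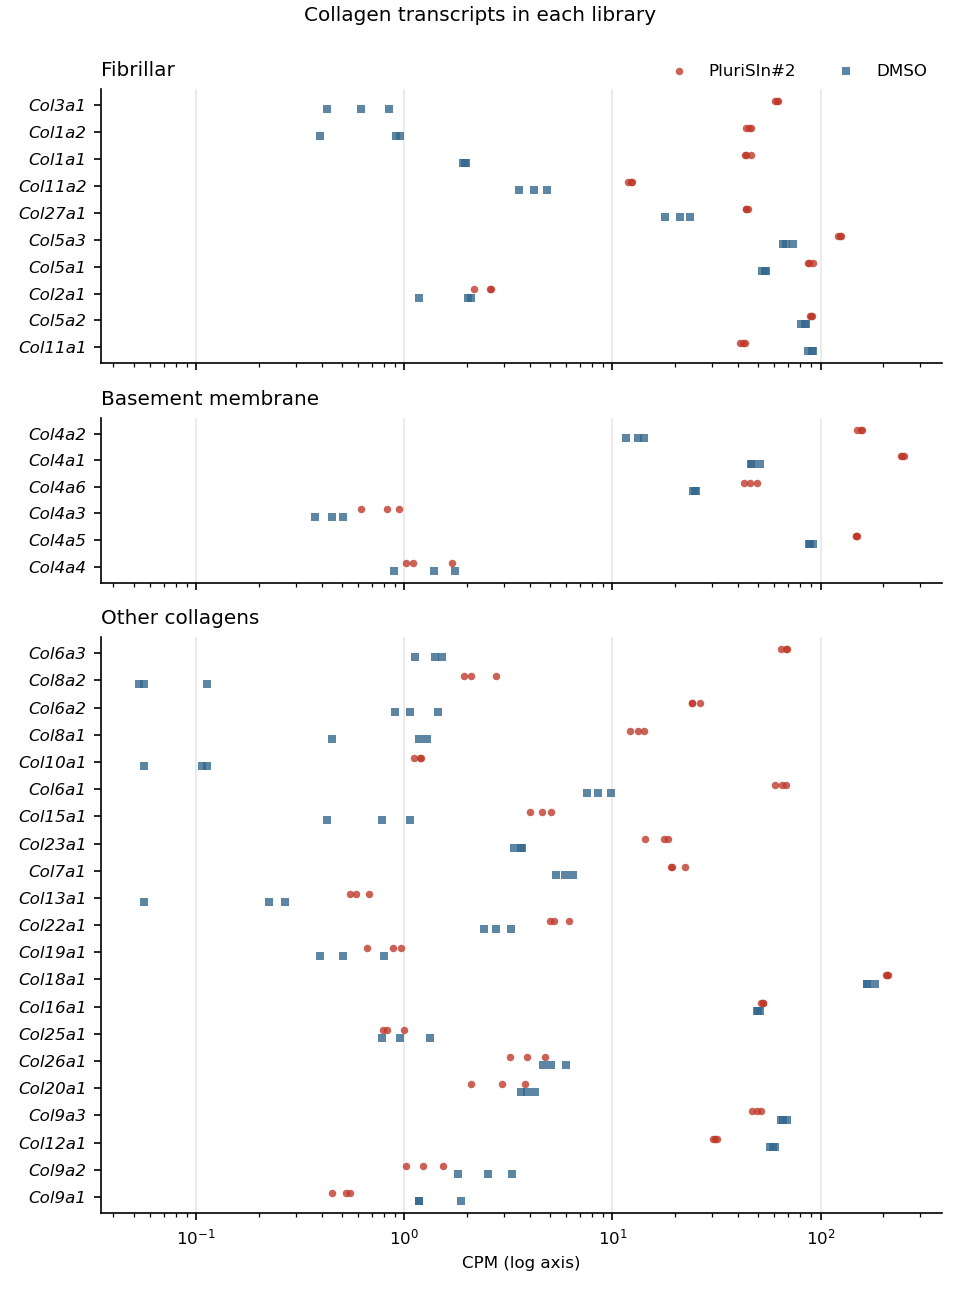
CPM on a log axis (x axis) of the 37 tested collagen genes, with a point for each library, circles for PluriSIn#2 and squares for DMSO, and genes ordered by fold change within each class. Col3a1, Col1a2 and Col1a1 lie between 43.5 and 62.3 CPM in PluriSIn#2 and below 2 CPM in DMSO, whereas the Col5 genes and Col18a1 are high in both groups.

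Type IV collagen, the network former of basement membranes, is made of 6 chains whose genes lie in head-to-head pairs. The pair for the alpha 1 and alpha 2 chains, which every basement membrane contains, changed most. Col4a2 stood at 150, 157 and 157 CPM in PluriSIn#2 and at 13.3, 11.7 and 14.1 CPM in DMSO (log2 fold change 3.57, SE 0.05, edgeR adjusted p = 4.02e-73). Col4a1 stood at 245, 243 and 251 CPM in PluriSIn#2 and at 50.9, 46.2 and 46.7 CPM in DMSO (2.36, SE 0.04, edgeR adjusted p = 2.67e-71). The 5′ ends of both genes overlap by 22 bases on opposite strands of chromosome 8, where Col4a1 spans chr8:11198423-11312826 and Col4a2 spans chr8:11312805-11449287. The shared bases are 0.295% of the exonic bases of Col4a1 and 0.332% of those of Col4a2.

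The pair for the alpha 5 and alpha 6 chains, on the X chromosome, rose by less and by similar amounts. Col4a5, whose human counterpart is mutated in X-linked Alport kidney disease, stood at 149, 148 and 150 CPM in PluriSIn#2 and at 88.8, 88.1 and 92.1 CPM in DMSO. Its log2 fold change was 0.73 (SE 0.04, edgeR adjusted p = 3.87e-34). Col4a6, its neighbour at a distance of 1308 bases, stood at 42.8, 45.9 and 49.2 CPM in PluriSIn#2 and at 25.3, 25.0 and 24.5 CPM in DMSO (0.88, SE 0.06, edgeR adjusted p = 5.5e-24). For both, the groups did not overlap.

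The pair for the alpha 3 and alpha 4 chains, which with alpha 5 make the mature network of the kidney filter, was barely present. Col4a3 averaged 0.794 ± 0.16 CPM in PluriSIn#2 and 0.443 ± 0.0667 CPM in DMSO, and Col4a4 averaged 1.27 ± 0.373 CPM in PluriSIn#2 and 1.34 ± 0.426 CPM in DMSO. Neither was called (edgeR adjusted p-values 0.0595 and 0.792), although Col4a3 was called without PluriSIn#2 replicate 1 (0.0449) and with library totals (0.0411). The fitted change of Col4a4 was above 0 without DMSO replicate 2, PluriSIn#2 replicate 1 or PluriSIn#2 replicate 2 and below 0 with all libraries. Of the exonic bases of Col4a3, 5.65% overlap a transcript on the other strand, and no source at hand states the strand setting of the counting.

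The other collagens divided by family. All 3 tested genes of type VI collagen, which forms beaded microfilaments around cells, rose by at least 4-fold. Col6a3 stood at 67.8, 64.8 and 69.3 CPM in PluriSIn#2 and at 1.40, 1.52 and 1.12 CPM in DMSO (log2 fold change 5.64, SE 0.10, edgeR adjusted p = 2.32e-66). Col6a2 stood at 26.5, 24.0 and 24.0 CPM in PluriSIn#2 and at 1.46, 0.901 and 1.07 CPM in DMSO (4.44, SE 0.14, edgeR adjusted p = 1.3e-47). Col6a1, the highest of the 3 per kb in DMSO, stood at 68.3, 65.3 and 60.4 CPM in PluriSIn#2 and at 9.86, 8.56 and 7.52 CPM in DMSO (2.91, SE 0.07, edgeR adjusted p = 4.44e-55). None of these groups overlapped, as in most tested genes. The remaining type VI genes, Col6a4, Col6a5 and Col6a6, had 14, 4 and 11 reads over the PluriSIn#2 libraries and 4, 2 and 3 over the DMSO libraries, and were not tested.

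The genes of the short-chain network collagens, types VIII and X, rose as well, with few reads in DMSO. Col8a2 stood at 2.77, 2.09 and 1.93 CPM in PluriSIn#2 and at 0.112, 0.0563 and 0.0534 CPM in DMSO. Its log2 fold change was 4.82 (SE 0.48, edgeR adjusted p = 1.07e-15), with 4 reads over the DMSO libraries and 120 over the PluriSIn#2 libraries. Col8a1, found around blood vessels, averaged 13.2 ± 0.984 CPM in PluriSIn#2 and 0.97 ± 0.455 CPM in DMSO (3.75, SE 0.18), and Col10a1, the collagen of hypertrophic cartilage, averaged 1.17 ± 0.0489 CPM in PluriSIn#2 and 0.0917 ± 0.0308 CPM in DMSO (3.57, SE 0.54). The DMSO value of Col10a1 rests on 5 reads over 3 libraries.

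Collagens that attach to fibril surfaces, the FACIT family, had a median log2 fold change of -0.43. Of 8 tested, 5 fell, 1 rose and 2 were not called, where 40.9% of all tested genes fell and 41.7% rose. The fall of Col20a1 is fragile, and without it, as in DESeq2, 4 of the 8 fell. All 3 genes of type IX collagen fell. Col9a3 stood at 52.0, 49.4 and 46.7 CPM in PluriSIn#2 and at 66.1, 68.9 and 64.8 CPM in DMSO (-0.43, SE 0.05, edgeR adjusted p = 1.61e-13). Its partner Col9a2 stood at 1.02, 1.54 and 1.23 CPM in PluriSIn#2 and at 2.52, 1.80 and 3.31 CPM in DMSO (-1.01, SE 0.25, edgeR adjusted p = 0.000226). Col9a1 stood at 0.451, 0.549 and 0.527 CPM in PluriSIn#2 and at 1.18, 1.18 and 1.87 CPM in DMSO (-1.46, SE 0.36, edgeR adjusted p = 0.000137). Within type IX, Col9a3 was therefore abundant and fell least, while its partners were at the level of few reads and fell more. Of the exonic bases of Col9a3, 6.07% overlap Tcfl5 on the other strand.

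Col12a1, a FACIT chain of tendon and other dense tissue, stood at 30.3, 31.7 and 31.1 CPM in PluriSIn#2 and at 59.3, 56.9 and 60.3 CPM in DMSO (log2 fold change -0.92, SE 0.05, edgeR adjusted p = 1.48e-28). Its groups did not overlap. Col16a1 stood at 51.8, 52.8 and 53.0 CPM in PluriSIn#2 and at 50.0, 49.4 and 51.3 CPM in DMSO and was not called (0.06, SE 0.05, edgeR adjusted p = 0.221). It was called higher when libraries were scaled by their totals alone (0.13, edgeR adjusted p = 0.0104) and on FPKM (limma adjusted p-values 0.0244 and 0.0241 with pseudocounts of 1 and 0.1). Col22a1, of tissue junctions, rose (0.97, SE 0.17), and Col19a1 was not called. Col20a1 fell (-0.42, SE 0.19, edgeR adjusted p = 0.033), a call that was lost without DMSO replicate 2 or 3 (0.0942 and 0.0562), without PluriSIn#2 replicate 1 or 2 (0.0614 and 0.316), with treated replicate 1 alone (0.149), with library totals (0.0758), in DESeq2 (0.149) and on FPKM (limma, 0.133 and 0.147).

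The collagen gene with the highest level per kb, level with Col4a1 in PluriSIn#2 and alone in DMSO, was Col18a1, which encodes the basement membrane proteoglycan whose end fragment is endostatin. It stood at 207, 209 and 210 CPM in PluriSIn#2 (209 ± 1.61) and at 183, 167 and 168 CPM in DMSO (173 ± 9.29), a rise of 0.27 (SE 0.03, edgeR adjusted p = 2.51e-13). Its relative Col15a1 rose by 2.58 (SE 0.25), to 4.55 ± 0.519 CPM in PluriSIn#2, against 0.76 ± 0.322 CPM in DMSO. Among the transmembrane collagens Col23a1 rose (2.24, SE 0.12) to 16.8 ± 2.22 CPM in PluriSIn#2, against 3.55 ± 0.163 CPM in DMSO. Col13a1, with 32 reads over the PluriSIn#2 libraries and 10 over the DMSO libraries, rose (1.68, SE 0.55), and Col25a1 was not called (-0.24, SE 0.34). Col7a1, the chain of the anchoring fibrils of skin, rose (1.77, SE 0.10) to 20.2 ± 1.81 CPM in PluriSIn#2, against 5.92 ± 0.547 CPM in DMSO.

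Col26a1 and Col28a1, which belong to no larger family, had lower values in PluriSIn#2. Col26a1 fell (-0.40, SE 0.16, edgeR adjusted p = 0.0184), and this call was lost without DMSO replicate 1 (0.12), without PluriSIn#2 replicate 3 (0.13), with treated replicate 1 alone (0.56), with library totals (0.0516), in DESeq2 (0.0952) and on FPKM (limma, 0.0667 and 0.0796). Col28a1 had 2, 1 and 2 reads in the PluriSIn#2 libraries and 10, 16 and 16 reads in the DMSO libraries, and just missed the filter. Without a filter its log2 fold change was -2.95 (edgeR adjusted p = 2.36e-05), the same direction as in DESeq2 (-3.04, adjusted p = 0.000891). The other members that missed the filter, Col14a1 and Col17a1 included, were not called without it. Col17a1 had 5 reads over the PluriSIn#2 libraries and 0 over the DMSO libraries, and Col14a1 had 25 over PluriSIn#2 and 19 over DMSO.

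Levels were compared between genes after division by transcript length, as CPM per kb of the protein-coding transcript with the longest coding sequence. Summed over the 44 genes, collagen transcripts reached 287, 285 and 284 CPM per kb in PluriSIn#2 and 154, 148 and 149 CPM per kb in DMSO, 1.90-fold more. The basement membrane sum, without Col18a1, was 91.2 ± 1.61 CPM per kb in PluriSIn#2 and 26.9 ± 0.573 in DMSO (3.39-fold). The fibrillar sum was 85.4 ± 1.23 CPM per kb in PluriSIn#2 and 46.5 ± 0.999 in DMSO (1.84-fold), and that of the other collagens was 109 ± 1.92 CPM per kb in PluriSIn#2 and 76.8 ± 1.73 in DMSO (1.42-fold). In each class all 3 PluriSIn#2 libraries lay above all 3 DMSO libraries, and no test was run on these sums over members.

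Basement membrane chains, here those of type IV only, held 32.0% ± 0.729 of the length-scaled sum in PluriSIn#2 and 17.9% ± 0.268 in DMSO. Col4a1 and Col4a2 alone carried this shift, with 21.5% ± 0.451 in PluriSIn#2 and 6.16% ± 0.206 in DMSO. The 4 remaining type IV chains held 10.5% ± 0.278 in PluriSIn#2 and 11.8% ± 0.318 in DMSO, although their sum was 1.70-fold higher in PluriSIn#2. Col18a1, counted among the other collagens, held 13.1% in PluriSIn#2 and 20.5% in DMSO. The size of the shift between the classes therefore depends on where Col18a1 is counted. The share of fibrillar chains was 29.9% ± 0.266 in PluriSIn#2 and 30.9% ± 0.124 in DMSO, although its members changed places. Types I and III together held 9.48% ± 0.174 of all collagen in PluriSIn#2 and 0.388% ± 0.0138 in DMSO, and the remaining fibrillar chains held 20.5% ± 0.0936 in PluriSIn#2 and 30.6% ± 0.123 in DMSO. Type VI held 10.1% ± 0.366 in PluriSIn#2 and 1.70% ± 0.214 in DMSO, and without it the sum of the other collagens was 79.9 ± 0.726 CPM per kb in PluriSIn#2 and 74.3 ± 1.38 in DMSO (1.08-fold).

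**Figure D3:**
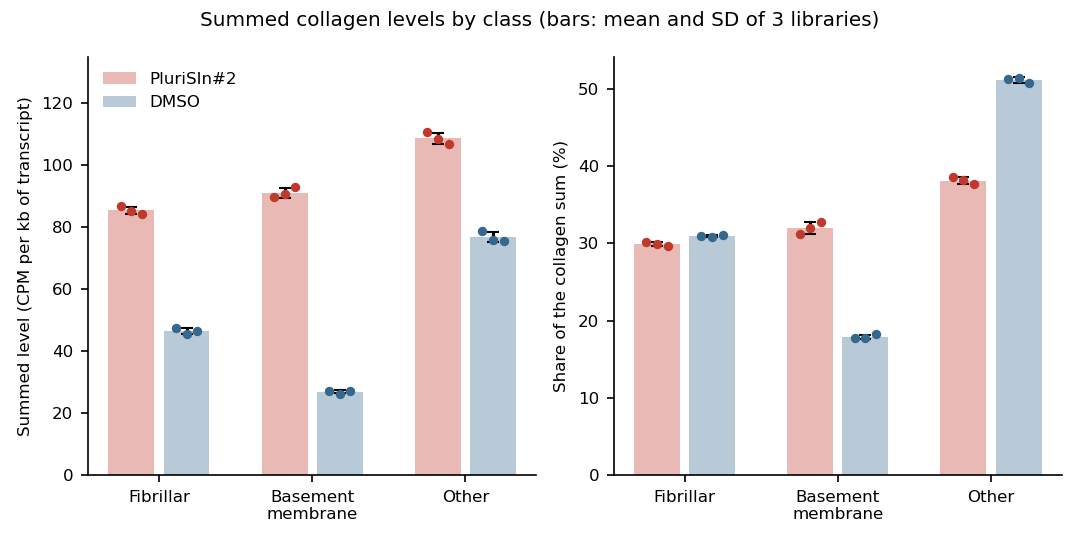
Summed levels of the fibrillar, basement membrane and other collagens in CPM per kb of transcript (left) and as percent of the sum of all 44 genes (right), with bars for the mean, error bars for the SD of 3 libraries and points for the libraries, PluriSIn#2 left of DMSO in each pair. The basement membrane sum is 91.2 CPM per kb in PluriSIn#2 and 26.9 in DMSO, while the fibrillar share is 29.9% in PluriSIn#2 and 30.9% in DMSO.

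The order of the most abundant chains changed accordingly. In PluriSIn#2 the highest levels were those of Col18a1 (37.3 ± 0.288 CPM per kb) and Col4a1 (37.3 ± 0.631), which did not differ beyond their spread, followed by Col4a2 (24.0 ± 0.596), Col4a5 (22.8 ± 0.119) and Col5a3 (20.1 ± 0.301). In DMSO the order was Col18a1 (30.9 ± 1.66), Col9a3 (21.9 ± 0.703), Col4a5 (13.7 ± 0.328), Col5a2 (12.6 ± 0.373) and Col11a1 (11.7 ± 0.371), with Col4a1 at rank 8 (7.24 ± 0.396). For the 35 collagens with at least 5 reads in every library, the length that the authors' FPKM imply came to between 0.71 times (Col22a1) and 1.09 times (Col6a3) the length used here, apart from Col19a1 (2.52 times) and Col25a1 (2.89 times), and to 0.808 times for Col1a1. The other 9 collagens were not checked in this way.

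Because chains assemble in fixed proportions, ratios of partner chains were compared within each library. Col1a1 and Col1a2 form type I collagen at a ratio of 2 to 1 as protein. Their transcripts, per kb, stood at ratios of 0.904, 0.871 and 0.895 in PluriSIn#2 and 1.86, 4.51 and 1.91 in DMSO, where Col1a2 had 17, 7 and 17 reads. With the authors' FPKM the mean ratio was 1.08 in PluriSIn#2 and 3.35 in DMSO, so the side of 1 on which the treated ratio falls depends on the gene length. Col4a1 and Col4a2, also partners at 2 to 1 as protein, stood at 1.59, 1.51 and 1.56 in PluriSIn#2 and at 3.74, 3.86 and 3.22 in DMSO. Both ratios were lower in every PluriSIn#2 library than in any DMSO library.

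The type VI chains, which assemble in equal numbers, moved in the same way. Col6a1 over Col6a2 was 2.51 ± 0.101 in PluriSIn#2 and 7.49 ± 1.45 in DMSO, and Col6a3 over Col6a1 was 0.424 ± 0.0367 in PluriSIn#2 and 0.0634 ± 0.00766 in DMSO. In each of these 4 pairs the chain that was scarcer per kb in DMSO thus had the larger fold change. The DMSO level is also the divisor of the fold change, so both are linked by construction, and the type VI pairs share Col6a1. Between network variants, Col4a5 over Col4a1 was 0.612 ± 0.0073 in PluriSIn#2 and 1.90 ± 0.12 in DMSO. Between fibril types, Col3a1 over Col1a1 was 1.47 ± 0.0375 in PluriSIn#2 and 0.343 ± 0.11 in DMSO. For each of these 6 ratios the groups did not overlap, and the two-sided exact permutation p was 0.1, also after adjustment over the 6, the smallest that 3 against 3 libraries allow.

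**Figure D4:**
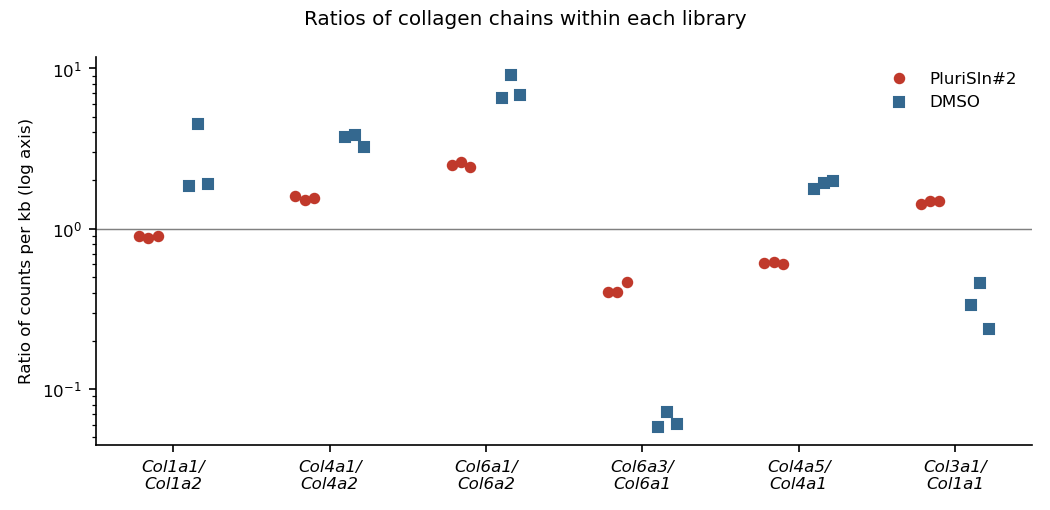
Ratio of counts per kb of transcript (y axis, log scale) for 6 pairs of collagen chains, with a point for each library, circles for PluriSIn#2 on the left and squares for DMSO on the right of each pair, and a line at 1. Each pair separates the groups, from a Col6a3 to Col6a1 ratio of 0.424 in PluriSIn#2 and 0.0634 in DMSO to a Col6a1 to Col6a2 ratio of 2.51 in PluriSIn#2 and 7.49 in DMSO.

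Promoter sequence is shown for the largest fibrillar rises with an entry, Col3a1 and Col1a2, for the largest rise among the other collagens, Col6a3, and for the fibrillar gene that fell, Col11a1. RefSeq promoter windows (GRCm38.p6) were matched for 35 of the 44 genes, in 38 windows. The 250 bases before the RefSeq start are given 5′ to 3′ on the strand of the gene. These are chr1:45311288-45311537 (plus strand) for Col3a1, chr6:4505368-4505617 (plus) for Col1a2, chr1:90843972-90844221 (minus) for Col6a3 and chr3:114030290-114030539 (plus) for Col11a1. The window of Col1a2 lies inside the GENCODE span of that gene, which begins at chr6:4504814. Capitals mark matches on either strand to CCAAT (the CCAAT box), TATAAA (the TATA box), GGGCGG (the GC box) and TGACTCA (an AP-1 site), and no matches overlap each other here.
Col3a1: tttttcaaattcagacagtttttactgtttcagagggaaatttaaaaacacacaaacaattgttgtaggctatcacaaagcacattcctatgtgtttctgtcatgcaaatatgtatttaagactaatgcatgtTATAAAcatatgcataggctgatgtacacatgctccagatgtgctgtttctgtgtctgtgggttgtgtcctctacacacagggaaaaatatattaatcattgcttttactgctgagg
Col1a2: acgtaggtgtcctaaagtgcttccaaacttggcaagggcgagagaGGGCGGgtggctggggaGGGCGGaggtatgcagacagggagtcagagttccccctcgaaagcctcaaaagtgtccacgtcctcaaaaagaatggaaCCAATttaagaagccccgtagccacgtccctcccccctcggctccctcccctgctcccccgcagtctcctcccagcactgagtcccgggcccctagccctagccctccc
Col6a3: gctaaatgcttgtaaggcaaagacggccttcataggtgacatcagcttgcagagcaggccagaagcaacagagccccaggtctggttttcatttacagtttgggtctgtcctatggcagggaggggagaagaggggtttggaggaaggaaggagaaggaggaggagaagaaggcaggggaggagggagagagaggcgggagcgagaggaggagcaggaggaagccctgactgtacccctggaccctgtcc
Col11a1: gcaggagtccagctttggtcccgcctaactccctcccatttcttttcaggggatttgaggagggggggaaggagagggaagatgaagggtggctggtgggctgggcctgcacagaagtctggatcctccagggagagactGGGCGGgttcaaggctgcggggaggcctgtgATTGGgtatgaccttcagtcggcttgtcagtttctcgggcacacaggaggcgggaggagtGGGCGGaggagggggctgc
The windows did not share a motif. That of Col3a1 held 1 match to TATAAA, at -117 to -112 from the start, and 35.2% G and C. That of Col1a2 held 2 GC boxes and 1 CCAAT box at 62.0% G and C, and that of Col6a3 held 0 of the 4 motifs. The window of Col11a1, which fell, held the same kinds of motif as that of Col1a2, which rose, with 2 GC boxes and 1 CCAAT box. Across the 38 collagen windows a GC box was found in 57.9%, against 32.7% of all 32851 promoter windows of the same length. G and C content ran from 35.2% (Col3a1) to 76.4% (Col5a1) in the collagen windows, and its part in this share was not tested. The CCAAT box was found in 34.2% of collagen windows and 33.8% of all, the TATA box in 13.2% and 12.4%, and the AP-1 site in 2.63% (only Col6a1) and 4.46%.

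Of 20 tested genes that fold and modify collagen chains in the endoplasmic reticulum, 10 rose, 8 fell and 2 were not called, with a median log2 fold change of 0.07. These counts lie near the shares over all tested genes (41.7% higher and 40.9% lower). Serpinh1, the collagen chaperone HSP47 and the one with the most reads, averaged 371 ± 4.48 CPM in PluriSIn#2 and 459 ± 6.54 CPM in DMSO (-0.31, SE 0.02, edgeR adjusted p = 3.84e-21). Colgalt1, which adds galactose to hydroxylysine, fell by 1.09 on the log2 scale, and P4hb, a subunit of prolyl 4-hydroxylase, by 0.44. Fkbp10, a prolyl isomerase, rose (0.98), as did P4ha3, a catalytic subunit of prolyl 4-hydroxylase (1.76), which averaged 14.0 ± 0.587 CPM in PluriSIn#2 and 4.14 ± 0.19 CPM in DMSO. Their summed level was 1573 to 1595 CPM in PluriSIn#2 and 1816 to 1822 CPM in DMSO.

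Of 14 genes that trim propeptides or crosslink chains outside the cell, 9 rose, 3 fell and 2 were not called. Over all tested genes, 41.7% were called higher and 40.9% lower. The median of the 14 was 0.89, against 0.01 over all tested genes. Lox and Tll1, with 18 reads each over the DMSO libraries, could enter the test only as risers, so the count of called genes favours risers. Bmp1, the main C-propeptide protease, averaged 253 ± 5.92 CPM in PluriSIn#2 and 156 ± 6.9 CPM in DMSO (0.70, SE 0.03, edgeR adjusted p = 3.21e-37). Its enhancer Pcolce averaged 27.3 ± 1.7 CPM in PluriSIn#2 and 5.04 ± 0.969 CPM in DMSO (2.44, SE 0.10). The N-propeptide protease Adamts3 fell (-1.06), and so did Pxdn (-0.50), the peroxidase that crosslinks type IV collagen, while Col4a1 and Col4a2 rose. Of 5 tested collagen-degrading proteases 4 rose and 1 was not called (median 3.39), beside the same shares over all tested genes. Among the risers, Mmp13 and Mmp9, with 21 and 14 reads over the DMSO libraries, could enter the test only as risers. Mmp2, a type IV collagenase, averaged 46.5 ± 1.42 CPM in PluriSIn#2 and 4.43 ± 0.275 CPM in DMSO, and Mmp13 averaged 17.4 ± 0.447 CPM in PluriSIn#2 and 0.383 ± 0.244 CPM in DMSO. Mmp14, with the most reads of the 5, averaged 217 ± 5.3 CPM in PluriSIn#2 and 217 ± 4.09 CPM in DMSO and was not called.

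Of 10 tested collagen receptor genes, 5 rose and 5 fell (median 0.02), again near the shares of 41.7% and 40.9% over all tested genes. Itga11, with 21 reads over the DMSO libraries, could enter the test only as a riser. Ddr1, a collagen-binding receptor kinase, averaged 709 ± 8.61 CPM in PluriSIn#2 and 454 ± 20.9 CPM in DMSO (0.64, SE 0.02, edgeR adjusted p = 9.36e-43). Adgrg1, an adhesion receptor for type III collagen, averaged 555 ± 3.83 CPM in PluriSIn#2 and 905 ± 8.98 CPM in DMSO (-0.71, SE 0.02, edgeR adjusted p = 2.63e-49), opposite in direction to Col3a1. Itgb1, the common beta chain of collagen-binding integrins, fell by 0.40 on the log2 scale, and Itga10, one of their alpha chains, rose (0.94).

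**Figure D5:**
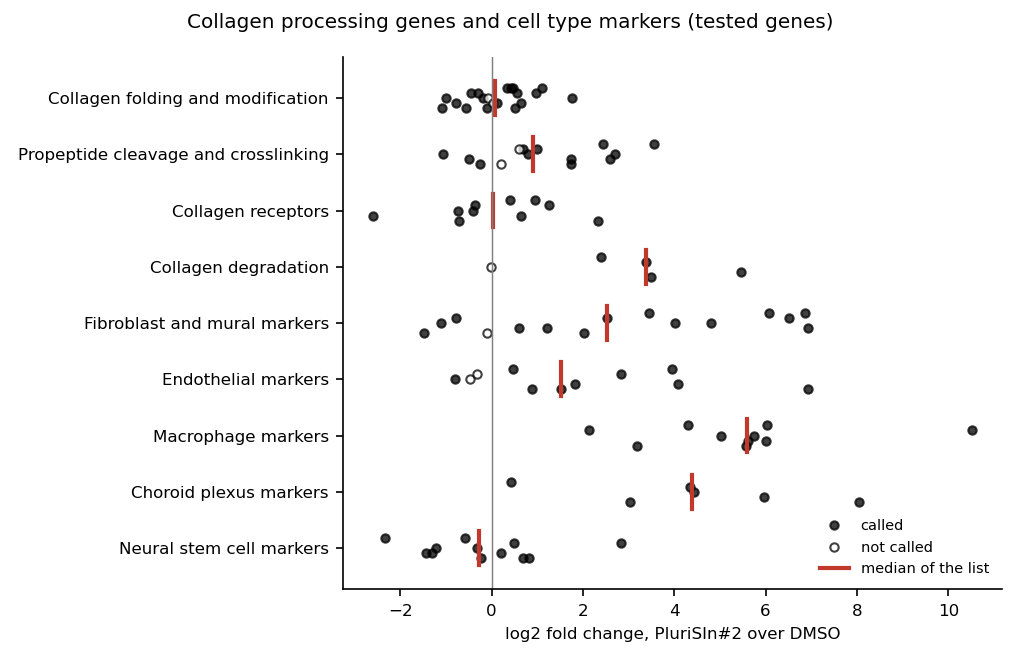
Log2 fold change of PluriSIn#2 over DMSO (x axis) of the tested genes in lists of collagen processing genes and of cell type markers, with filled points for called genes, open points for genes not called and a red bar at the median of each list. The median is 0.07 for folding and modification genes, 0.89 for propeptide cleavage and crosslinking genes and 2.53 for fibroblast and mural markers.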

How the data were processed

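RNA sequencing libraries, 6 in all and grouped by title as PluriSIn#2 or DMSO, were compared, 3 per group. The authors deposited whole-number read counts per gene symbol, not normalized, and FPKM, which the authors scaled for length and depth. The FPKM table also carries the authors' log2 fold changes and the authors' p-values, deposited with no statement of their settings. They were used here only for 1 comparison of calls. STAR, HTSeq, DESeq and mm10 are named per the submitters' processing notes, and no source at hand gives their versions, the annotation or the strand setting.

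Counts were tested in R 4.3.3 with edgeR 4.0.16 (TMM scaling, filterByExpr defaults, glmQLFit and glmQLFTest, group as the only term, two-sided, Benjamini-Hochberg adjustment over 14417 genes, threshold 0.05). Each SE is the size of the log2 fold change over the square root of the F statistic. CPM use library totals times TMM factors. Spans, overlaps and transcript lengths come from GENCODE M21 on GRCm38, the build also called mm10, and all 44 genes matched by symbol. Replicates were not copies of each other (chi-square per degree of freedom 1.56 to 2.22 within groups). Alternatives used DESeq2 1.42.0, limma 3.58.1 on log2 FPKM, other scalings, filters and libraries. Values in every library are given for the 4 most abundant genes and the 3 largest called rises and falls of each class. In other lists genes were named from the one with the most reads and the 2 with the smallest p in each direction. Outside this rule, Ptprc, C1qa, Kl, Lox, Tll1, Mmp9 and Itga11 were named for their few DMSO reads. Cspg4 and Otx2 were named for their part in a summed level. Neighbours and promoter examples were chosen after their values were seen. The members and lists were chosen with earlier results of these data known. Count precision covers counting error only.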

Additional observations from a re-analysis of the deposited data

How the results depend on the processing

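The counts of collagen genes called higher and lower, in all and per class, and of all genes stayed within 1.5 times their values under the 15 alternatives run. Collagens called higher numbered 23 to 27 and those called lower 5 to 8. With the replicate number as a block, 24 collagens were higher and 7 lower, and 5984 and 5867 genes in all. Same-numbered libraries did not deviate together (correlations 0.0134, 0.0293 and -0.0025), so no pairing by number was seen. A pairing that leaves no shared deviation would look the same. Of 551 values of single collagen genes under these alternatives, 520 kept direction and call, 18 lost the call, 10 gained it and 3 changed sign, over 7 genes. The sign changes were those of Col4a4, never called, at 0.14 without DMSO replicate 2, 0.05 without PluriSIn#2 replicate 1 and 0.01 without PluriSIn#2 replicate 2 (range over single libraries left out -0.35 to 0.14), and their cause was not tested. With a filter at 1 CPM, Col4a3, Col13a1, Col19a1 and Col25a1 had no value. Each of the 6 chain ratios kept its direction with the authors' FPKM and without each library, a choice made after seeing the data. The authors' deposited table, which covers all 44 collagens, had 24 higher and 6 lower at their adjusted p under 0.05. Their falls include Col28a1, not tested here, and leave out Col20a1 and Col26a1, which were called lower here. Genes with few DMSO reads, among them Col8a2 and Col10a1, are measured in coarse steps.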
